A study of Mus musculus with 11 samples.

Results

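The type I interferon-stimulated genes are described here as a list of 35 genes given by name. The list was chosen with earlier results of these data known, so the counts of called members below may not be independent of them. Of the 35 listed genes, 34 were among the 26921 genes of the count files. Usp18, which removes ISG15 from proteins, was not analysed here, and Oas3 had no entry in the file of Juvenile 4, where it was taken as 0. The genes were followed in single cells of myelin-depleted cerebral cortex of C57BL/6 mice, captured on the 10x Chromium system with unique molecular identifiers (UMIs), which count each transcript copy once. Juvenile mice were at postnatal day 10 (4 libraries, tissue of 6 mice pooled). Adult mice were 7 to 11 weeks old (3 libraries, 6 mice pooled), and Aged mice were 18 months old (2 libraries, 3 mice pooled). Mice with experimental autoimmune encephalomyelitis (EAE) were 7 to 11 weeks old and at the peak of disease (2 libraries, 3 mice pooled). The paper does not state whether each library had its own pool of mice. EAE, an autoimmune attack on myelin, was induced in female mice with a myelin oligodendrocyte glycoprotein peptide in Complete Freund's Adjuvant and with pertussis toxin. The other groups were untreated, so the effects of the autoimmune disease, the adjuvant and the toxin cannot be told apart. Aged, EAE and Juvenile libraries were each compared with the same 3 Adult libraries.

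Type I interferons bind the receptor IFNAR on almost every cell, which activates the kinases JAK1 and TYK2 and leads to a complex that holds STAT2 and IRF9. This complex enters the nucleus, binds the interferon-stimulated response element (ISRE) in front of its target genes, and raises proteins that sense viral RNA, degrade it, block its translation or tether budding virus. Interferon gamma, made mainly by T and NK cells, acts through another receptor on gamma-activated sites (GAS), and raises many of the same genes. In the brain these genes are known to be raised in microglia and vessels in infection, autoimmunity and ageing.

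To show what the list shares in sequence, the letters GAAA, any 2 bases and GAAA again (ISRE) and the letters TTCNNNGAA (GAS) were searched on both strands in the RefSeq promoter windows of build GRCm38.p6, which run from 250 bases before to 50 bases after the start of a gene. A window was at hand for 25 members. The ISRE letters stood in the windows of 12 of the 25 members (48%), of 6 of 24 other genes of the interferon pathway (25%) and of 1079 of 27025 genes overall (3.99%). The GAS letters stood in 7 of the 25 members (28%), 10 of the 24 other pathway genes (41.7%) and 2582 of all genes (9.55%). The stretches below come from members with ISRE matches that had large changes in ECs or were called in many cell types. Not every such member is shown: Oas1a and Ifitm3 also held 2 matches each. They are printed 5′ to 3′ on the strand of the gene, with the ISRE matches in capitals, and overlapping ISRE matches run into a single block. GAS matches are not marked, and the Bst2 stretch holds one, at chr8:71537600-71537608.
Ifit1: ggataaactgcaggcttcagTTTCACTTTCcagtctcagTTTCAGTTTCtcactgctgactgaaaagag
Ifit3: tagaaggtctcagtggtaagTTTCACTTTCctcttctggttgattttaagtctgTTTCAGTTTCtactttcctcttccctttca
Isg15: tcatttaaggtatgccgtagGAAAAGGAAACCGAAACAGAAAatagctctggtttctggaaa
Rsad2: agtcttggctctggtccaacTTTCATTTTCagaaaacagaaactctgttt
Bst2: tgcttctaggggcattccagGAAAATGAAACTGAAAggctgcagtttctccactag
Stat2: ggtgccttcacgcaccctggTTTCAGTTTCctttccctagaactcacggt
The stretch of Ifit1 lies at chr19:34640765-34640833 on the plus strand and that of Ifit3 at chr19:34583353-34583436 on the plus strand, with 2 matches in each. The stretch of Isg15 lies at chr4:156200855-156200916 on the minus strand and holds 3 overlapping matches. The stretch of Rsad2 lies at chr12:26456543-26456592 on the minus strand, that of Bst2 at chr8:71537567-71537622 on the minus strand and that of Stat2 at chr10:128270256-128270305 on the plus strand. The windows of Irf7, Irf9, Oasl2, Xaf1 and Cmpk2 held none of the ISRE letters, which says only that these letters are not in these windows. Ifi27l2a, Zbp1 and Rtp4, which are named often below, had no window. The match is a description of letters, not of binding.

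The 11 libraries held 15755504 to 34326349 UMIs and 54646 barcodes, of which 50625 cells passed the limits on genes and mitochondrial UMIs, with a median of 2420 to 4199.5 UMIs per cell and library. Clusters were named from fixed markers, with all members kept out of the clustering, which gave 21150 EC-like (endothelial), 8749 Micro-like (microglial), 6678 CP-like (choroid plexus epithelial), 2064 PVM-like (perivascular macrophage), 1499 Mural-like and 1336 Astro-like cells. In each cluster of these 6 types 6 or 7 of the 7 markers of the type were detected. Adult 1 stood apart from Adult 2 and 3 and held most adult cells of 1 EC-like and 1 Micro-like cluster of its own. Library pairs shared 13 to 125 cell barcodes. Levels are given as CPM, the number of UMIs of a gene in 1000000 UMIs of a cell type in a library. The groups also differed in RNA of other cells: the 7 choroid plexus markers summed to 20876 to 52585 CPM in Adult, 3911 to 8930 in Juvenile, 7048 to 9474 in Aged and 7900 to 8098 CPM in EAE EC-like cells.

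The summed level of the members differed between cell types as well as between conditions. Ifitm3, Bst2 and Ifi27l2a are abundant without induction in some cells, so the other 31 analysed members were summed apart. In EC-like cells this sum was 475 CPM ± 17.8 (SD, n = 3, with Juvenile 1 and 2 counted once) in Juvenile, 2139 ± 114 (n = 3) in Adult, 2274 ± 80.0 (n = 2) in Aged and 2431 ± 11.3 (n = 2) in EAE libraries. In Micro-like cells it was 390 ± 65.6, 506 ± 124, 562 ± 40.7 and 1977 ± 49.8 CPM in the same order. Adult ECs thus held the sum at a level that Micro-like cells came near only in EAE. PVM-like cells lay between, with 797 ± 11.4 CPM in Juvenile, 1047 ± 38.8 in Adult, 1276 ± 113 in Aged and 1889 ± 110 in EAE. CP-like cells were lowest, with 106 ± 9.82, 187 ± 15.9, 189 ± 15.9 and 345 ± 50.6 CPM. In none of these 6 types did the EAE libraries overlap the Adult libraries in this sum.

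**Figure D1:**
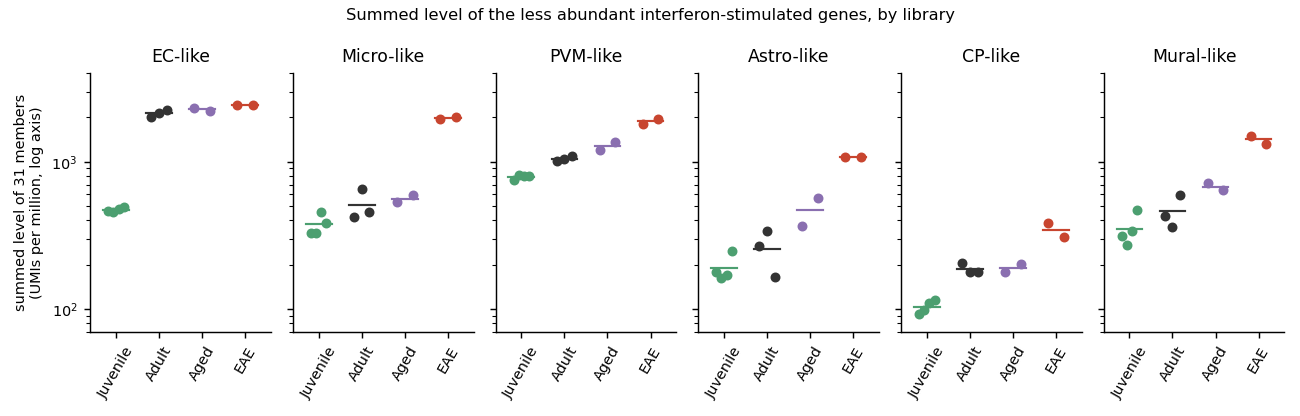
Summed level of the 31 less abundant members (CPM, log axis) in each library of 6 cell types. Points are libraries and bars are the means over the libraries. EC-like cells are low only in Juvenile libraries (453 to 491 CPM), and Micro-like cells are high only in EAE libraries (1941 to 2012 CPM).

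Among infiltrating cells, for which no comparison was tested, the sum was high in EAE as well. MonoMac-like cells (monocytes and macrophages) held 2800 CPM ± 80.2 (SD, n = 2) in EAE and 985 ± 157 (n = 3) in Adult libraries, the latter from 18 to 47 cells a library. T_NK-like cells held 1437 ± 82.0 in EAE and 754 ± 246 CPM in Adult, and Neutrophil-like cells held 2455 ± 289 CPM in EAE. Summed markers of neutrophils were higher in every EAE and Aged library than in every Adult library in all 6 types, and those of T and NK cells in every EAE library. Their values stand beside the results below, and their part in those results was not tested.

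In ECs, the question was how the endothelium at postnatal day 10 differs from that of the adult. Every member that could be tested was lower in Juvenile than in Adult EC-like cells. Ifit1 and Ifit3, which bind viral RNA, and Rsad2, which blocks virus replication, were close to 0 in Juvenile libraries, while Bst2, which tethers virus to the cell, and Ifitm3, which blocks virus entry, were present at a lower level. Of 32 members tested, 32 were lower and 0 higher at an adjusted p under 0.05 (edgeR quasi-likelihood test, Benjamini-Hochberg over all genes), with a median log2 fold change of -2.15. Over all 13695 genes tested in ECs the median was -0.02, with 22.5% called lower and 24.7% called higher. Oas3 and Mx1 were too low to be tested. Without any single library the count was 32 as well, and with all near-identical library pairs summed, 31 members were lower. Those pairs were Juvenile 1 and 2, Juvenile 3 and 4, Adult 2 and 3, Aged 1 and 2, and EAE 1 and 2, which leaves 2 units each of Juvenile and Adult and 1 unit each of Aged and EAE. With a single Aged or EAE unit the test assumes that it varies like the other groups, so a lower count there also comes with fewer units.

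Ifit3 lay at 2.38, 1.78, 2.38 and 2.42 CPM in Juvenile 1 to 4, against 104, 127 and 127 CPM in Adult 1 to 3. The groups were far apart, and Juvenile 2 was the lowest library. The log2 fold change of Ifit3 was -5.60 (SE 0.128, adjusted p = 5.54e-11). Ifit1, a close neighbour of Ifit3 on chromosome 19, had 6.14, 6.13, 6.59 and 6.14 CPM in Juvenile and 156, 138 and 151 CPM in Adult libraries. The log2 fold change of Ifit1 was -4.45 (SE 0.103, adjusted p = 5.54e-11). Rsad2 changed by -4.68 (SE 0.163, adjusted p = 8.23e-10) and Cmpk2, the neighbouring gene on chromosome 12 that encodes a mitochondrial nucleotide kinase, by -3.61 (SE 0.159, adjusted p = 4.84e-09) on the log2 scale. Oas1a, of the synthetases that make the activator of RNase L, changed by -3.48 (SE 0.272, adjusted p = 2.82e-06). Its last 500 bases share 56.1% of their 50-base words with Oas1g, so reads of these genes may be divided between them. Ifi27l2a, a small interferon-induced membrane protein, lay between 0.807 and 4.15 CPM in Juvenile and between 24.7 and 37.8 CPM in Adult libraries (log2 fold change -3.63, SE 0.267, adjusted p = 1.74e-06).

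Isg15, the ubiquitin-like modifier, had 41.96, 31.3, 39.1 and 39.1 CPM in Juvenile and 268, 295 and 318 CPM in Adult EC-like cells. Irf7, the transcription factor that amplifies interferon output, had 13.7, 18.8, 20.9 and 24.2 CPM in Juvenile and 139, 175 and 194 CPM in Adult libraries. Adult 1 was the lowest Adult library for both, and no Juvenile library came near it. Bst2 lay between 152 and 178 CPM in Juvenile and between 328 and 348 CPM in Adult, and Ifitm3 between 634 and 852 CPM against 1579, 2087 and 2092 CPM. By role, the median log2 fold change was -3.92 for the 4 genes that bind RNA or block translation (Ifit1, Ifit2, Ifit3, Eif2ak2), -3.29 for 4 oligoadenylate synthetase genes, -2.10 for the sensors Ifih1, Ddx58, Dhx58 and Zbp1, -1.91 for the transcription factors Irf7, Irf9 and Stat2, and -0.98 for Isg15, Herc6, Dtx3l and Trim25. The smallest change was that of Trim25, a ubiquitin ligase of the RNA-sensing pathway, at -0.46 (SE 0.116, adjusted p = 0.00652). The other 31 members were called under every alternative that kept all libraries, and Trim25 was not.

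Juvenile and Adult ECs fell largely into different clusters. Within cluster 4, which held 2862 Juvenile and 259 Adult cells, the 31 members summed to 485 CPM in Juvenile and 1653 CPM in Adult cells. Within cluster 2 the sums were 535 CPM in 33 Juvenile and 2219 CPM in 3049 Adult cells, so the difference was present inside both. Of 8 genes known to respond to tissue dissociation, which summed to 3581 to 4958 CPM in Juvenile and 7306 to 14725 CPM in Adult EC-like cells, 6 were called lower in Juvenile. Their part in the result was not tested. The microglial markers summed to 78.0 to 177 CPM in Juvenile and 118 to 352 CPM in Adult EC-like cells, and the neutrophil markers to 2.97 to 7.85 and 35.04 to 43.2 CPM. EC-like cells held a median of 5022 to 8321 UMIs in Juvenile and 2935 to 3690.5 UMIs in Adult libraries.

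**Figure D2:**
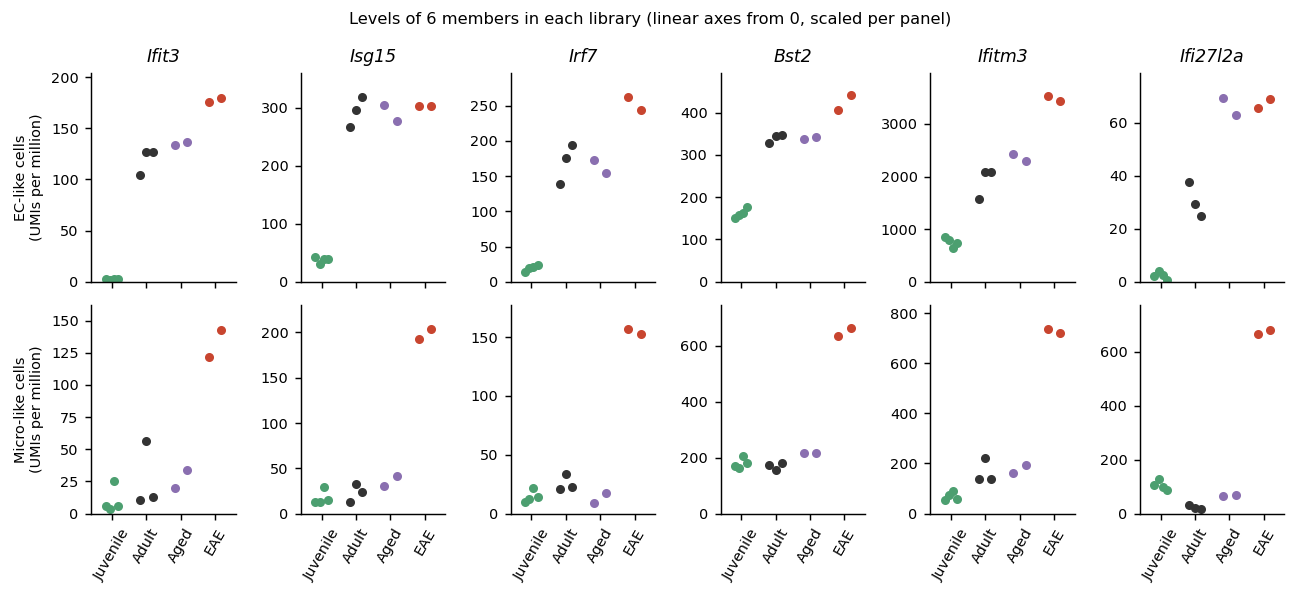
Levels (CPM, linear axes from 0, scaled per panel) of 6 members in EC-like cells (upper row) and Micro-like cells (lower row). Each point is a library. Ifit3 in EC-like cells lies at 1.78 to 2.42 CPM in Juvenile and 104 to 127 CPM in Adult libraries, and all 6 members are highest in the EAE libraries in Micro-like cells.

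In EAE, ECs of the diseased cortex were set against those of untreated adults. Members moved in both directions in EC-like cells: Zbp1, a sensor of Z-form nucleic acid, rose most, and Oas1a fell. Of 32 members tested, 14 were higher and 2 lower (Oas1a and Trim25), where 17.2% and 15.8% of all 13695 genes were called higher and lower. The median log2 fold change was 0.34, against -0.03 over all genes. With all near-identical pairs summed, which leaves the EAE libraries as a single unit, 4 members were higher and 0 lower, and Ifi27l2a, Parp14, Stat2 and Zbp1 were called under every alternative that kept all libraries.

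Zbp1 had 8.42, 10.7 and 12.3 CPM in Adult and 76.6 and 80.3 CPM in EAE EC-like cells. The EAE libraries were far above all others, and the log2 fold change was 3.02 (SE 0.124, adjusted p = 9.44e-09). Oas1a had 41.8, 33.0 and 35.03 CPM in Adult and 14.3 and 10.8 CPM in EAE (log2 fold change -1.38, SE 0.244, adjusted p = 0.00193). Ifitm3, already at 1579 to 2092 CPM in Adult, reached 3527 and 3439 CPM in EAE (log2 fold change 1.01, SE 0.135, adjusted p = 0.000142). Ifi27l2a rose by 1.31 (SE 0.192, adjusted p = 0.000575), Parp14, an ADP-ribosyltransferase, by 0.995 (SE 0.123, adjusted p = 7.45e-05) and Stat2 by 0.88 (SE 0.0879, adjusted p = 1.27e-05). Smaller rises were called for Irf7 (139 to 194 CPM in Adult, 262 and 244 CPM in EAE), Ifit3 (175 and 180 CPM in EAE) and Bst2 (407 and 442 CPM in EAE). Isg15 was not called, with 302 and 304 CPM in EAE inside the Adult range of 268 to 318 CPM. The log2 fold change of Isg15 was 0.19 (SE 0.0951, adjusted p = 0.138). By role, 2 of 3 transcription factors, 2 of 4 genes that bind RNA or block translation and 1 of 4 sensors were higher. The 6 MonoMac markers summed to 547 to 626 CPM in Adult and 1105 CPM in both EAE libraries of EC-like cells, but Fn1 alone made up to 606 CPM of it in Adult and at least 999.1 CPM in EAE, so in ECs this sum does not measure MonoMac-like RNA. Plac8, another gene of the list, was at most 3.58 CPM in Adult and at least 42.7 CPM in EAE. Neutrophil markers summed to 35.04 to 43.2 CPM in Adult and 197 to 244 CPM in EAE EC-like cells, and T and NK markers to 4.36 to 11.7 and 28.2 to 31.8 CPM. Most EAE cells lay in clusters 0 and 5 and most Adult cells in clusters 0, 2 and 14, and within clusters the sums went both ways. They were 2556 CPM in EAE and 2510 CPM in Adult cells of cluster 0, 2629 and 2219 CPM in cluster 2, 2319 and 1653 CPM in cluster 4, and 1457 and 1968 CPM in cluster 14, where EAE held 65, 99 and 34 cells of the last 3.

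At 18 months, few members passed the test in EC-like cells. Of 32 members, 2 were higher (Ifi27l2a and Oas2) and 0 lower, and 4.36% and 5.9% of all genes were called in these directions, so the count was near this background. At an unadjusted p under 0.05 there were 8 of 32 members and 26.7% of all genes, and DESeq2 called 2. Ifi27l2a had 69.3 and 63.0 CPM in Aged against 24.7 to 37.8 CPM in Adult, without overlap, and its log2 fold change was 1.12 (SE 0.195, adjusted p = 0.0067). Oas2 was scarce, with 595 UMIs over all EC-like cells, and was at 0 in 3 of 11 libraries. Irf7 (173 and 154 CPM) and Bst2 (337 and 343 CPM) lay inside the Adult ranges, and Ifit3 (134 and 136 CPM) lay above the Adult range of 104 to 127 CPM without being called. Aged and Adult ECs lay largely in different clusters, cluster 0 with 4394 Aged and 876 Adult cells, cluster 2 with 1020 and 3049, and cluster 14 with 29 and 842. Within each cluster with at least 20 cells of both groups, the 31 members were lower in Aged, opposite to the sums over all EC-like cells. The sums were 2429 CPM in Aged and 2510 CPM in Adult cells of cluster 0, 2018 and 2219 CPM in cluster 2, 1562 and 1653 CPM in cluster 4, and 1450 and 1968 CPM in cluster 14, with no test. The choroid plexus markers given above also differed between these groups. Neutrophil markers summed to 35.04 to 43.2 CPM in Adult and 200 to 261 CPM in Aged EC-like cells, and neuron markers to 85.6 to 95.8 and 317 to 340 CPM. The part of these 3 lists was not tested. The count was 4 without Adult 1, 1 without Aged 1, and 0 with all near-identical pairs summed.

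In EAE, nearly all tested members were higher in Micro-like cells, among them Ifi27l2a, Zbp1, Ifit2, Oasl2, Isg15 and Rtp4. Of 33 members tested, 32 were higher and 0 lower, where 14.6% and 13.4% of 10824 genes were called higher and lower, and the median log2 fold change was 2.35 against -0.01 over all genes. Trim25 was the member not called, at 0.55 (SE 0.209, adjusted p = 0.0601). With all near-identical pairs summed, 23 members were higher and 0 lower, and without Adult 1 the count was 28.

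Ifi27l2a had 30.7, 21.1 and 15.5 CPM in Adult and 665 and 683 CPM in EAE Micro-like cells (log2 fold change 5.02, SE 0.189, adjusted p = 5.47e-12). Zbp1 had 7.69, 16.2 and 5.63 CPM in Adult and 153 and 167 CPM in EAE (log2 fold change 4.32, SE 0.230, adjusted p = 5.36e-10). For both genes the EAE libraries were close to each other and far above every Adult library. Isg15 had 12.3, 32.4 and 23.9 CPM in Adult and 193 and 204 CPM in EAE (log2 fold change 3.46, SE 0.383, adjusted p = 0.000182). Irf7 had 20.8, 34.0 and 22.5 CPM in Adult and 157 and 152 CPM in EAE. Adult 2 was the highest Adult library for both of these genes. Ifit2 rose by 4.01 (SE 0.516, adjusted p = 6.55e-05), Oasl2 by 3.69 (SE 0.270, adjusted p = 1.77e-08) and Rtp4, a chaperone of membrane receptors, by 3.05 (SE 0.213, adjusted p = 1.55e-08) on the log2 scale. Bst2 went from 155 to 180 CPM in Adult to 636 and 666 CPM in EAE, and Ifitm3 from 138, 222 and 139 CPM to 736 and 720 CPM.

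Ifit3 was uneven between Adult libraries, with 10.8, 56.7 and 12.7 CPM in Adult 1 to 3 and 122 and 143 CPM in EAE Micro-like cells. Its log2 fold change was 2.73 (SE 0.801, adjusted p = 0.0479). In Adult 2, 3 of 273 cells held 60% of the Ifit3 UMIs. By role, all 3 transcription factors, all 4 genes that bind RNA or block translation, all 5 tested oligoadenylate synthetase genes, all 4 sensors, Ifitm3, Bst2, Mx1 and Mx2 and both ADP-ribosyltransferases were higher, and so were Isg15, Herc6 and Dtx3l and all 7 tested genes among the other effectors. Oas3 was at 0 in all 3 Adult libraries and in 7 of 11 libraries in all, with 6.32 and 7.99 CPM in EAE, and passed the filter on low counts through the EAE libraries, so its call adds nothing to these counts.

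EAE and Adult Micro-like cells lay in different clusters, cluster 6 with 2650 EAE and 23 Adult cells and cluster 1 with 35 EAE and 596 Adult cells. Within cluster 1 the 31 members summed to 1574 CPM in EAE and 489 CPM in Adult cells. Within cluster 6 they summed to 1968 CPM in EAE and 1342 CPM in the 23 Adult cells, and to 1858 CPM in 46 Juvenile cells. Ifit3 had 52.0 CPM in EAE and 22.7 CPM in Adult cells of cluster 1. In cluster 6 its order was the other way, with 138 CPM in EAE and 187 CPM in Adult cells. The 6 MonoMac markers were higher in EAE too, with 37.7 to 53.5 CPM in Adult and 221 to 255 CPM in EAE Micro-like cells. Fn1 alone reached 43.6 CPM of this sum in Adult and was at least 22.5 CPM in EAE. Plac8 was at most 4.86 CPM in Adult and at least 156 CPM in EAE. The members were at 22.4 to 26.4 times the level that this share of MonoMac-like RNA would carry in the EAE libraries. Levels of this kind assume that RNA of another cell type comes in a single ratio with its markers, which was not tested. The 7 endothelial markers were lower, with 1342 to 1610 CPM in Adult and 538 to 586 CPM in EAE, and the members were at 35.2 to 39.3 times the level that this share of EC-like RNA would carry. In Adult Micro-like cells they were at 3.88 to 5.20 times that level. For Isg15 the EC-like share would carry 14.3, 17.2 and 15.7 CPM in Adult 1 to 3, more than the whole Isg15 level of Adult 1, against 6.87 and 6.38 CPM in EAE. Neutrophil markers summed to 247 to 279 CPM in Adult and 348 to 368 CPM in EAE Micro-like cells, and T and NK markers to 1.41 to 18.4 and 28.5 to 34.2 CPM. Csf3r alone reached 224 CPM of the neutrophil sum in Adult and was at least 155 CPM in EAE. S100a8 was at most 29.2 CPM in Adult and at least 70.4 CPM in EAE, and S100a9 at most 21.1 and at least 65.2 CPM. The dissociation genes summed to 19455 to 20509 CPM in Adult and 12248 to 12816 CPM in EAE Micro-like cells, with 6 of 8 called lower, and their part was not tested.

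At postnatal day 10 Micro-like cells differed from the adult in few members and in both directions. Of 33 members, 2 were higher (Ifi27l2a and Eif2ak2) and 7 lower, where 12.3% and 12.9% of all genes were called higher and lower, so the counts were near this background. The median log2 fold change was -0.43. Ifi27l2a had 106, 128, 99.9 and 86.1 CPM in Juvenile against 15.5 to 30.7 CPM in Adult, and rose by 2.07 (SE 0.190, adjusted p = 4.69e-07) on the log2 scale, opposite to its direction in EC-like cells. Ifitm3 lay between 55.3 and 91.7 CPM in Juvenile, below each Adult library, and changed by -1.21 on the log2 scale (SE 0.196, adjusted p = 0.000564). The endothelial markers moved with it, with 272 to 314 CPM in Juvenile and 1342 to 1610 CPM in Adult Micro-like cells. This share of EC-like RNA would carry 84.3, 122 and 103 CPM of the 138, 222 and 139 CPM of Ifitm3 in Adult, and 9.38 to 18.2 CPM in Juvenile. The dissociation genes summed to 10721 to 11532 CPM in Juvenile and 19455 to 20509 CPM in Adult Micro-like cells. The part of either in the result was not tested. Ifih1, a sensor of double-stranded RNA, changed by -1.09 (SE 0.277, adjusted p = 0.00749). Smaller changes were called for the sensor Ddx58 (-0.67), the RNA-dependent kinase gene Eif2ak2 (0.67) and Ifi35 (-0.45). Bst2 overlapped, with 162 to 205 CPM in Juvenile and 155 to 180 CPM in Adult. With all near-identical pairs summed 1 member was higher and 1 lower, the count was 5 without Adult 2 and 4 without Adult 3, and Ifi27l2a and Ifitm3 were called under every alternative that kept all libraries.

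At 18 months 1 of 33 members was higher in Micro-like cells and 0 were lower, where 1.64% and 1.3% of all genes were called, so the count was near this background, and 6 of 33 members and 17.5% of all genes had an unadjusted p under 0.05. The member was Ifi27l2a, with 65.2 and 70.5 CPM in Aged above all 3 Adult libraries (log2 fold change 1.53, SE 0.215, adjusted p = 0.001). Isg15 had 29.9 and 41.5 CPM and Irf7 8.97 and 17.8 CPM in Aged, and neither was called. Endothelial markers summed to 1342 to 1610 CPM in Adult and 916 to 1284 CPM in Aged Micro-like cells. The dissociation genes summed to 19455 to 20509 CPM in Adult and 16406 to 16504 CPM in Aged, with 1 of 8 called higher and 2 lower. Neutrophil markers summed to 247 to 279 CPM in Adult and 437 to 509 CPM in Aged Micro-like cells, and Csf3r alone reached 224 CPM of this sum in Adult. The part of these lists was not tested. With all near-identical pairs summed the count was 0, and without Juvenile 2 it was 2.

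Whether the effects differed between Micro-like and EC-like cells was tested with the interaction of cell type and group, with the library as a block. The EAE effect was larger in Micro-like cells for 29 of 34 members and smaller for 0, where 7.32% and 8.33% of all genes were called in these directions. The median difference was 1.85 on the log2 scale. It was 3.80 for Ifi27l2a (SE 0.182, adjusted p = 1.04e-11), 3.25 for Isg15 (SE 0.208, adjusted p = 6.29e-10), 2.07 for Irf7 (SE 0.181, adjusted p = 6.28e-08), 1.67 for Bst2 (SE 0.160, adjusted p = 1.98e-07) and 1.34 for Ifitm3 (SE 0.199, adjusted p = 6.58e-05). Ifit3 differed by 1.98 but was not called (SE 0.495, adjusted p = 0.0609). Oas1a moved in opposite directions, with 1.65 in Micro-like and -1.38 in EC-like cells, a difference of 3.09 (SE 0.345, adjusted p = 1.62e-06). As given above, reads of Oas1a and Oas1g may be divided between these genes.

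The Juvenile effect was higher in Micro-like than in EC-like cells for 22 of 33 members and lower for 0, where 6.52% and 7.74% of all genes were called. Ifi27l2a differed by 5.88 (SE 0.268, adjusted p = 3.85e-15), Isg15 by 2.60 (SE 0.381, adjusted p = 0.00138), Irf7 by 2.25 (SE 0.249, adjusted p = 1.31e-07) and Bst2 by 1.08 (SE 0.148, adjusted p = 4.17e-06). For Isg15 the EC-like RNA share in Micro-like cells would carry 14.3 to 17.2 CPM in Adult and 0.561 to 0.828 CPM in Juvenile, of levels of 12.3 to 32.4 and 12.3 to 28.8 CPM, and its part in this difference was not tested. Ifitm3 differed by 0.10 (SE 0.235, adjusted p = 0.835). The EC-like RNA share given above would carry the larger part of its level in Adult and the smaller part in Juvenile Micro-like cells. For the Aged effect 0 of 33 members were called in either direction, where 0.307% and 0.349% of all genes were called, and 5 members and 10.4% of all genes had an unadjusted p under 0.05. This interaction was not run in DESeq2, and without Adult 1 the count for the Aged effect was 1.

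**Figure D3:**
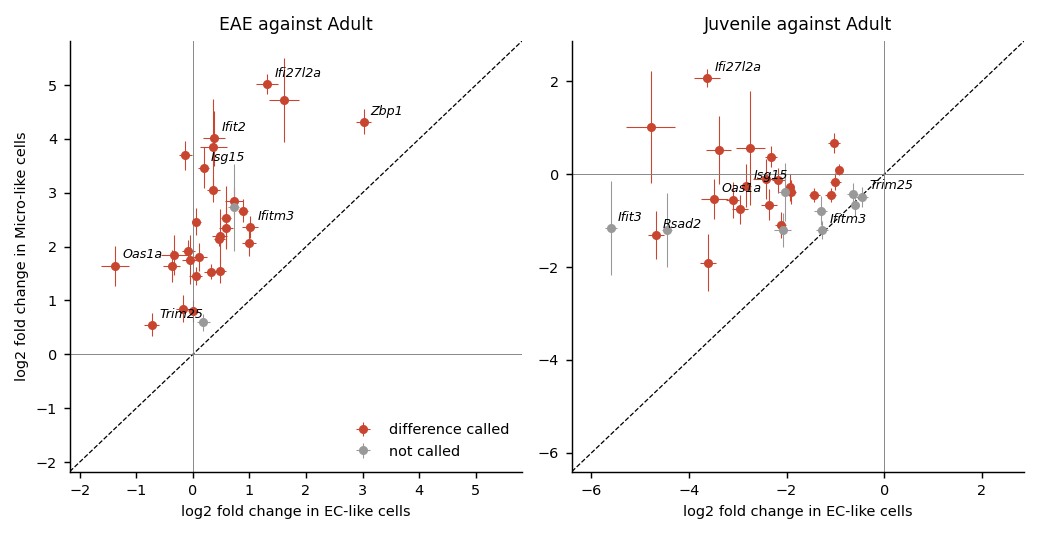
Log2 fold change of each member in EC-like cells (horizontal axis) and Micro-like cells (vertical axis) for EAE and Juvenile against Adult, with standard errors. The dashed line marks equal change, and red points are members whose difference between the cell types was called (29 for EAE, 22 for Juvenile). All EAE points lie above the line, while in Juvenile Ifi27l2a is at -3.63 in EC-like and 2.07 in Micro-like cells.

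Perivascular macrophages, which line vessels and clear debris, were compared next. Of 30 members, 20 were higher and 0 lower in EAE PVM-like cells, where 11.5% and 8.31% of 7928 genes were called, with a median of 0.97. The 20 include Oas3, which held 50 UMIs over all PVM-like cells and was at 0 in 2 of 11 libraries. It may have passed the filter on low counts through the EAE libraries, and if so its call adds nothing to the 20. Zbp1 had 21.2, 19.2 and 28.5 CPM in Adult and 176 and 197 CPM in EAE, without overlap (log2 fold change 3.18, SE 0.210, adjusted p = 6.98e-11). Irf7 had 54.8, 38.3 and 38.0 CPM in Adult and 185 and 198 CPM in EAE (log2 fold change 2.25, SE 0.194, adjusted p = 4.99e-09). Ifi27l2a rose by 1.95 (SE 0.272, adjusted p = 0.00105), Parp14 by 1.68 (SE 0.211, adjusted p = 2.04e-06), Oasl1 by 1.62 (SE 0.430, adjusted p = 0.0085) and Ifitm3 by 1.59 (SE 0.145, adjusted p = 1.6e-08). With all near-identical pairs summed 14 members were higher, and without EAE 2 the count was 13. The microglial markers summed to 3065 to 3356 CPM in Adult and 1880 to 2030 CPM in EAE PVM-like cells. That is 18.9% to 21.8% of their level in Micro-like cells of the same library in Adult and 24.6% and 26.8% in EAE, and the list holds genes that macrophages share, so it does not measure Micro-like RNA in these cells. MonoMac markers rose with the members, from 51.4 to 68.6 CPM in Adult to 184 and 196 CPM in EAE PVM-like cells, where the members were at 29.0 and 29.1 times the level that this share of MonoMac-like RNA would carry. Fn1 alone reached 52.7 CPM of this sum in Adult and was at least 47.0 CPM in EAE. Plac8 was at most 4.75 CPM in Adult and at least 71.6 CPM in EAE. Neutrophil markers went from 71.5 to 119 CPM in Adult to 223 to 271 CPM in EAE and T and NK markers from 6.33 to 15.6 to 32.1 to 66.8 CPM, and their part was not tested.

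In Juvenile PVM-like cells 5 of 30 members were lower and 0 higher, where 5.78% and 4.33% of all genes were called. Ifitm3 had 353, 358, 543 and 434 CPM in Juvenile against 830, 766 and 950 CPM in Adult (log2 fold change -1.04, SE 0.136, adjusted p = 2.03e-05). Rsad2 (-1.17, SE 0.354, adjusted p = 0.0352), Irf7 (-0.89, SE 0.252, adjusted p = 0.0248), Isg15 (-0.83, SE 0.210, adjusted p = 0.0128) and Ifi35 (-0.65, SE 0.201, adjusted p = 0.0405) were the other members called. The count was 1 with all near-identical pairs summed and 3 without Juvenile 3. Endothelial markers were lower in the same cells, with 320 to 1018 CPM in Juvenile and 1424 to 2225 CPM in Adult. That EC-like share would carry 15.1 to 23.8 of the 51.4 to 72.8 CPM of Isg15 in Adult, and 0.963 to 2.10 of 26.99 to 46.96 CPM in Juvenile. In Aged PVM-like cells 2 members were higher and 0 lower, where 1.49% and 1.22% of all genes were called, and 12 of 30 members and 15.1% of all genes had an unadjusted p under 0.05. The 2 called were Cmpk2, with 20.4 and 33.0 CPM in Aged against 3.35 to 7.98 CPM in Adult (log2 fold change 2.39, SE 0.504, adjusted p = 0.00926), and Ifitm3, with 1351 and 1380 CPM (0.73, SE 0.146, adjusted p = 0.00578). The count was 0 without Aged 2, 1 without Aged 1, 4 without Adult 1 and 0 with the pairs summed. The dissociation genes summed to 13624 to 25363 CPM in Adult, 9575 to 14771 CPM in Juvenile, 6921 to 8152 CPM in Aged and 4427 to 5339 CPM in EAE PVM-like cells, and markers of dendritic cells to 153 to 203 CPM in Adult and 1267 to 1501 CPM in Aged PVM-like cells. In Aged, 3 of these 7 markers were at 0, so the sum rests on the other genes of the list. That list includes Cd209a, which the paper gives as a gene of a subtype of perivascular macrophages, so the sum need not measure dendritic cell RNA. The part of both lists in these results was not tested.

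CP-like cells, the epithelium that makes cerebrospinal fluid, had low levels throughout. In EAE 16 of 28 members were higher and 1 lower (Cmpk2), where 18.3% and 20.1% of 12993 genes were called, with a median of 0.72. Ifi27l2a had 41.0, 19.1 and 19.8 CPM in Adult and 204 and 188 CPM in EAE (log2 fold change 2.696, SE 0.244, adjusted p = 5.03e-05). Bst2 had 184, 189 and 192 CPM in Adult and 684 and 570 CPM in EAE (log2 fold change 1.59, SE 0.244, adjusted p = 0.00109). Ifit1 rose by 2.02 (SE 0.234, adjusted p = 3.63e-06), Rtp4 by 1.54 (SE 0.160, adjusted p = 1.2e-06), Ifitm3 by 1.04 (SE 0.235, adjusted p = 0.00742) and Isg15 by 1.03 (SE 0.235, adjusted p = 0.00241). The EAE libraries lay above every Adult library for each of these 6 genes. MonoMac markers summed to 42.3 to 51.0 CPM in Adult and 111 to 156 CPM in EAE CP-like cells, where the 31 members were at 7.19 and 8.07 times the level that this share of MonoMac-like RNA would carry. Fn1 alone reached 43.3 CPM of this sum in Adult and was at least 20.3 CPM in EAE. Plac8 was at most 3.19 CPM in Adult and at least 51.8 CPM in EAE. Neutrophil markers summed to 50.1 to 66.4 CPM in Adult and 173 to 188 CPM in EAE. The dissociation genes summed to 1919 to 2062 CPM in Adult and 1478 to 1535 CPM in EAE CP-like cells, with 4 of 8 called lower. The part of these lists was not tested. With all near-identical pairs summed 9 members were called, all higher, and without EAE 1 the count was 10. Most EAE cells lay in cluster 15, with 497 EAE and 260 Adult cells, and most Adult cells in cluster 3, with 395 and 2589. The 31 members summed to 346 CPM in EAE and 206 CPM in Adult cells of cluster 15, and to 312 and 181 CPM in cluster 3. In cluster 10 they were lower in EAE, with 469 CPM in 24 EAE and 591 CPM in 26 Adult cells.

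In Juvenile CP-like cells 17 of 28 members were lower and 0 higher, where 30.7% and 29.8% of all genes were called, with a median of -1.18. Ifi27l2a had 1.89, 1.97, 3.71 and 4.02 CPM in Juvenile, below each Adult library, and changed by -3.20 (SE 0.338, adjusted p = 3.69e-05). Ifitm3 changed by -1.36 (SE 0.222, adjusted p = 0.00057) and Ifi35 by -1.29 (SE 0.146, adjusted p = 5.05e-07). Endothelial markers differed between the groups here: the 7 genes summed to 530 to 610 CPM in Juvenile and 1696 to 1817 CPM in Adult CP-like cells. In Adult the 31 members were at 1.196 to 1.51 times the level that this share of EC-like RNA would carry, in Juvenile at 5.01 to 8.11 times and in EAE at 5.76 to 5.96 times. The dissociation genes summed to 1120 to 1558 CPM in Juvenile and 1919 to 2062 CPM in Adult CP-like cells, with 4 of 8 called lower. The part of this RNA and of these genes in the Juvenile result was not tested. Juvenile and Adult CP-like cells lay in different clusters, cluster 10 with 1715 Juvenile and 26 Adult cells and cluster 3 with 320 and 2589. The sums were 109 CPM in Juvenile and 591 CPM in Adult cells of cluster 10, and 92.9 and 181 CPM in cluster 3. In Aged CP-like cells 0 of 28 members were called in either direction, where 0.954% and 1.34% of all genes were called, 2 members and 14.8% of all genes had an unadjusted p under 0.05 and DESeq2 called 0. Without Adult 1 the count was 1.

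Astro-like and Mural-like cells were few, and 17 and 14 members passed the filter on low counts. In EAE Astro-like cells 5 members were higher and 0 lower, where 2.33% and 0.517% of 7349 genes were called. Ifit3 had 10.5, 16.1 and 18.3 CPM in Adult and 121 and 115 CPM in EAE (log2 fold change 3.37, SE 0.681, adjusted p = 0.00119). The other members called were Rtp4 (2.97, SE 0.605, adjusted p = 0.00126), Ifi27l2a (2.94, SE 0.669, adjusted p = 0.00485), Bst2 (2.59, SE 0.471, adjusted p = 0.00647) and Stat2 (2.38, SE 0.643, adjusted p = 0.0258). Mean levels of Ifit3, Rtp4, Ifi27l2a and Stat2 were 14.9 to 21.2 CPM in Adult and 87.4 to 119 CPM in EAE. These members may have passed the filter on low counts through the EAE libraries, which would raise the count of 5. The 7 neutrophil markers summed to 36.6 to 112 CPM in Adult and 192 to 5771 CPM in EAE Astro-like cells and the MonoMac markers to 68.0 to 96.3 and 121 to 492 CPM, and their part was not tested. These values rest on 37 and 35 EAE cells and on 115, 20 and 18 Adult cells. Without Adult 1 the count was 0, without Adult 3 it was 3 and without EAE 2 it was 2, and in Adult the 31 members were at 0.645 to 1.56 times the level that the EC-like RNA in these cells would carry. In Juvenile Astro-like cells 2 members (Ifi27l2a and Ifi35) were lower and 0 higher, where 6.23% and 6.76% of genes were called. Ifi27l2a changed by -2.82 (SE 0.855, adjusted p = 0.0192), and the count was 0 without Adult 1. Endothelial markers summed to 530 to 903 CPM in Juvenile and 2130 to 4544 CPM in Adult Astro-like cells. In Aged Astro-like cells 0 members were called, where 0.163% and 0.422% of genes were called higher and lower, 3 of 17 members and 10.9% of genes had an unadjusted p under 0.05 and DESeq2 called 0.

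In EAE Mural-like cells, the pericytes and smooth muscle cells of vessels, 8 of 14 members were higher and 0 lower, where 2.98% and 1.5% of 5606 genes were called. Ifit3 had 10.9, 9.40 and 18.5 CPM in Adult and 159 and 108 CPM in EAE (log2 fold change 3.39, SE 0.499, adjusted p = 0.000673). Irf7 had 10.9, 4.70 and 27.7 CPM in Adult and 132 and 108 CPM in EAE (log2 fold change 3.11, SE 0.444, adjusted p = 0.000555). Ifit1 (3.23), Ifi27l2a (2.99), Rtp4 (2.99) and Xaf1 (1.95), a regulator of cell death, were also called. Mean levels of Ifit1, Ifit3, Irf7, Ifi27l2a and Rtp4 were 8.27 to 14.4 CPM in Adult and 85.9 to 133 CPM in EAE. These members may have passed the filter on low counts through the EAE libraries, which would raise the count of 8 of 14. The endothelial markers were higher too, with 2040 to 2516 CPM in Adult and 5212 to 6602 CPM in EAE Mural-like cells, and the 31 members were at 2.29 to 2.90 and 2.12 to 3.07 times the level that EC-like RNA would carry. MonoMac markers summed to 56.4 to 102 CPM in Adult and 277 to 303 CPM in EAE Mural-like cells, of which Fn1 made up to 92.3 and at least 166 CPM. Neutrophil markers summed to 43.5 to 50.8 CPM in Adult and 242 to 277 CPM in EAE. The count was 2 with all near-identical pairs summed, 5 without EAE 1 and 4 without EAE 2.

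In Juvenile Mural-like cells Bst2 was the member called, with 494, 429, 484 and 206 CPM in Juvenile against 124, 113 and 143 CPM in Adult, without overlap. It was higher by 1.55 on the log2 scale (SE 0.285, adjusted p = 0.00169), where 12% of genes were called higher and 13.6% lower, so the count was near this background, and Juvenile 4 was the lowest of its group. Endothelial markers were lower in Juvenile, at 372 to 676 CPM. In Aged Mural-like cells 0 of 14 members were called, where 0.0178% of genes were called in each direction, 4 members and 8.54% of genes had an unadjusted p under 0.05 and DESeq2 called 0.

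**Figure D4:**
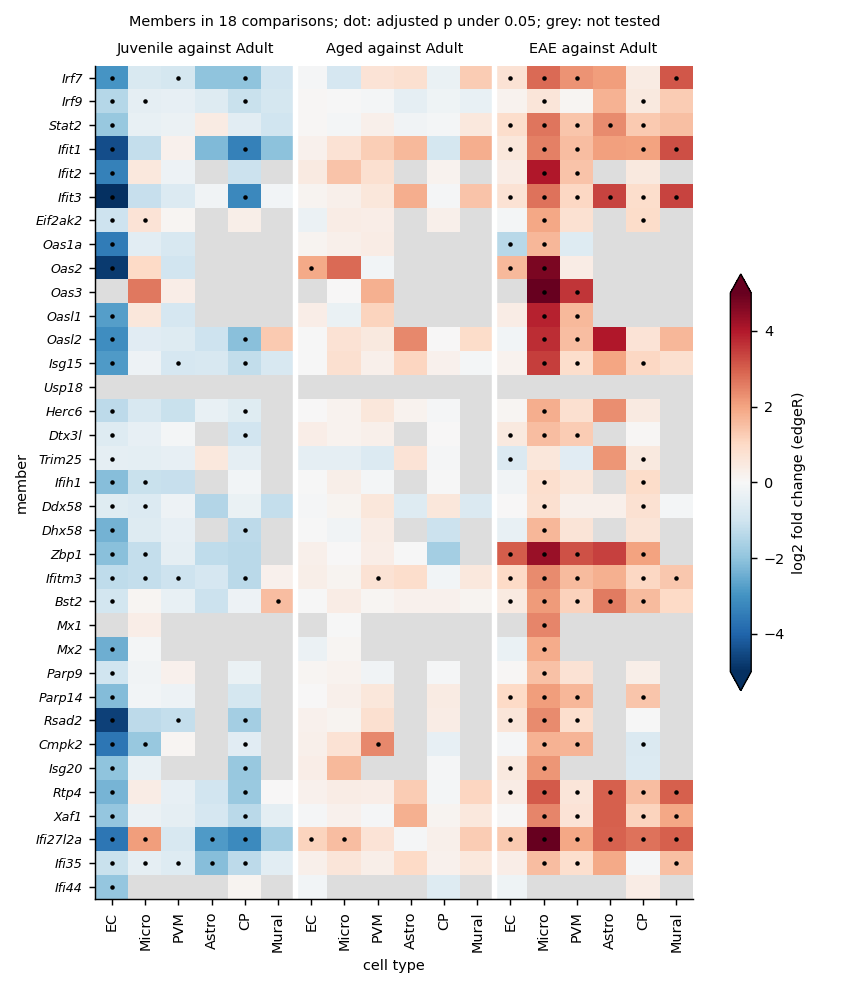
Log2 fold change of each of the 35 members (rows, grouped by role) in 18 comparisons with Adult (columns), coloured from -5 to 5. Dots mark an adjusted p under 0.05 and grey cells were not tested. The EC-like column is blue for all 32 tested members in Juvenile, and the Micro-like column is dotted for 32 of 33 members in EAE.

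Across the 6 cell types Ifit3, Ifi27l2a and Rtp4 were called higher in EAE in all 6, and Ifit1, Bst2, Stat2 and Ifitm3 in 5. The EAE comparisons of these cell types share the libraries, so they are not independent. Not every member was tested in all 6 types: Mx1 was tested in 1 and Ifi44 in 2. The share of all genes called in as many types was not computed, so these counts and the Juvenile counts below have no background. Isg15 was called in 3 types (Micro-like, PVM-like and CP-like), Oas1a and Trim25 were lower in EC-like cells, and Cmpk2 was lower in CP-like cells. Oas1a and Cmpk2 were higher in Micro-like cells, and Trim25 in CP-like cells. In the Juvenile comparisons Ifi35, an interferon-induced regulator, was called lower in 5 types and Ifitm3 in 4, while Oas3 and Mx1 were called in none of the types that tested them.

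Whether many or few cells carried the transcripts was asked with the share of cells that held at least 3 UMIs of the 31 less abundant members, after each cell was thinned to 1500 UMIs and shallower cells were left out. In EC-like cells the share was 50.6% ± 2.42 (SD, n = 3) in Adult, 50.9% ± 0.271 (n = 2) in Aged, 54.0% ± 0.496 (n = 2) in EAE and 5.71% ± 0.307 (n = 3) in Juvenile. In Micro-like cells it was 5.10% ± 2.13 in Adult, 6.09% ± 0.0367 in Aged, 42.7% ± 1.62 in EAE and 3.88% ± 0.691 in Juvenile. PVM-like cells were at 20.2% ± 1.52 in Adult, 46.9% ± 1.45 in EAE and 13.7% ± 0.749 in Juvenile. CP-like cells, with a median of 3823 to 11609 UMIs a cell against 2254 to 8321 in EC-like cells, had low shares, with 0.587% ± 0.207 in Adult and 3.02% ± 0.687 in EAE. Without thinning the share was 77.5% to 79.2% in Adult and 42.1% to 60.4% in Juvenile EC-like cells, and 13.6% to 17.4% in Adult and 66.6% to 72.2% in EAE Micro-like cells. Thinned to 1000 UMIs the share was 33.6% in Adult and 2.48% in Juvenile EC-like cells and 2.57% in Adult and 27.9% in EAE Micro-like cells, and with at least 2 UMIs it was 68.6%, 17.1%, 15.9% and 61.5% in the same order. Cells left out as too shallow made up 0.367% to 15.5% of EC-like cells and 0.209% to 46.2% of Micro-like cells a library. With 3 Adult libraries the exact permutation test (two-sided, 18 comparisons) could not go below p = 0.1, its value for Juvenile ECs and EAE Micro-like cells (0.225 adjusted over the 18).

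**Figure D5:**
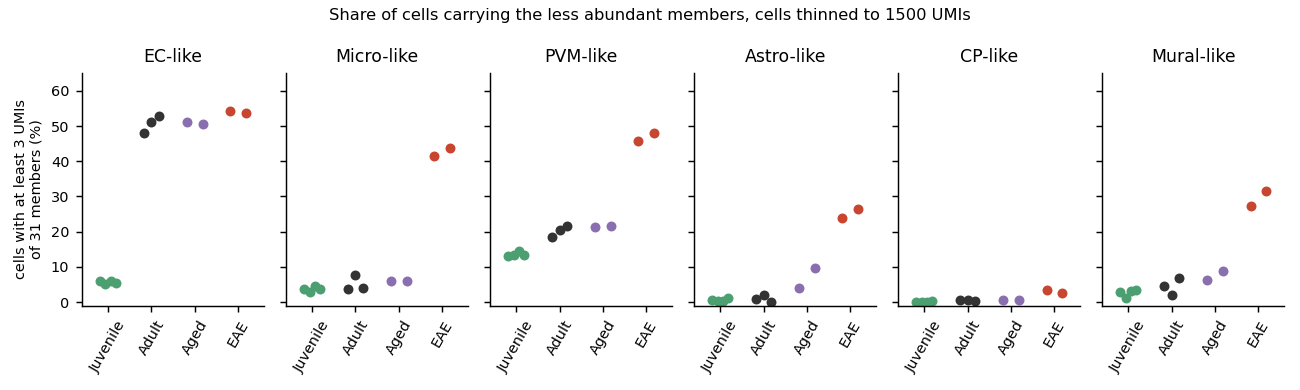
Share of cells (%) with at least 3 UMIs of the 31 less abundant members in each library, with cells thinned to 1500 UMIs. Points are libraries of the 4 groups in 6 cell types. Adult, Aged and EAE ECs sit between 48.0% and 54.3%, and Micro-like cells reach 41.6% and 43.9% in the EAE libraries.

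At the upper end, cells with at least 10 such UMIs without thinning, a limit chosen after the values were seen, made up 28.6% to 32.6% of Adult and 3.87% to 9.57% of Juvenile EC-like cells, although Juvenile EC-like cells were the deeper ones. Among Micro-like cells they numbered 255 of 1420 (18.0%, 95% exact binomial interval 16.0% to 20.1%) and 296 of 1435 (20.6%, 18.6% to 22.8%) in EAE. In Juvenile Micro-like cells there were 7 of 1035, 9 of 959, 12 of 898 and 7 of 855 such cells, which held 73.7%, 72.7%, 89.7% and 84.6% of the Ifit3 UMIs of their libraries. Adult 3 held 0 of 302, with an interval that reached 1.21%. The intervals cover counting error only. Of the UMIs of all 31 members they held 10.7% to 28.0% in Juvenile Micro-like cells, a sum that chose these cells and includes Ifit3.

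Of the other genes of the pathway, 28 were listed and 25 were in the files. In Juvenile EC-like cells 7 of 21 tested were lower and 2 higher, where 22.5% and 24.7% of all genes were called lower and higher. Ifnar2, a chain of the type I receptor, had 80.8 to 103 CPM in Juvenile and 182 to 198 CPM in Adult ECs (log2 fold change -0.94, SE 0.0941, adjusted p = 5.76e-06), while the other chain, Ifnar1, was not called. Tmem173, the adaptor STING, was higher by 1.72 (SE 0.175, adjusted p = 6.35e-06). In EAE ECs 6 of 21 were higher and 1 lower, where 17.2% and 15.8% of all genes were called. Irf8 was higher by 1.89 (SE 0.261, adjusted p = 0.000246) and Ifnar2 lay at -0.55 (SE 0.104, adjusted p = 0.00175).

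In EAE Micro-like cells 8 of 21 were higher and 0 lower, where 14.6% and 13.4% of all genes were called. Socs3, a suppressor of cytokine signalling, rose by 1.49 on the log2 scale (SE 0.161, adjusted p = 2.94e-06). Irf1, a factor induced by interferon gamma, rose by 1.42 (SE 0.133, adjusted p = 4.2e-07). Ifnb1, the ligand interferon beta, had 0, 3.24 and 0 CPM in Adult and 12.9 and 9.22 CPM in EAE Micro-like cells and was called (adjusted p = 0.00243). It was near 0 in Adult and, like Oas3, may have passed the filter on low counts through the EAE libraries. If so, its call adds nothing to the 8 of 21. The interferon alpha genes Ifna2 and Ifna5 were at or near 0 in EC-like, Micro-like, PVM-like, MonoMac-like and T_NK-like cells, where no value exceeded 2.82 CPM. Ifng, the gene of interferon gamma, lay at 283 and 261 CPM in EAE T_NK-like cells, 307, 65.1 and 140 CPM in Adult and 13.98 to 41.8 CPM in Juvenile T_NK-like cells. In Juvenile Micro-like cells 6 of 21 pathway genes were lower and 0 higher, where 12.9% and 12.3% of all genes were called. Ifnar2 was among them, at -0.80 (SE 0.125, adjusted p = 0.000149).

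Members with and without the ISRE letters can be set side by side. In EAE Micro-like cells the 12 tested members with the letters had a median log2 fold change of 2.35 and the 12 without them 2.00. In EAE EC-like cells the medians were 0.47 over 11 members with the letters, 6 of them higher, and 0.18 over 13 without them, 3 higher. In EAE CP-like cells they were 0.98 over 10 members, 9 higher, and 0.43 over 12, 3 higher. In EAE PVM-like cells the order was the other way, with 0.97 over 12 members and 1.27 over 11, 8 higher in each. In Juvenile EC-like cells the medians were -2.13 over 11 members with and -1.94 over 13 without the letters. In Juvenile Micro-like, PVM-like and CP-like cells they were -0.60, -0.53 and -0.89 with and -0.45, -0.45 and -1.11 without the letters. These medians are descriptions of the members with a window, which leaves out Ifi27l2a, Zbp1 and Rtp4.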

How the data were processed

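Single-cell libraries of mouse cortex were analysed from the deposited count matrices, which hold UMI counts per gene and cell barcode. The authors made them with bcl2fastq 2.19.1.403, UMI-tools 0.5.3, STAR 2.5.3a and featureCounts 1.6.1 on mm10, per the submitters' processing notes, and the strand setting of the counting is not given in the sources used here. Libraries held 15755504 to 34326349 UMIs, so levels near 1 CPM rest on few molecules.

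Barcodes were kept between 500 and 6000 detected genes if mitochondrial genes held less than 25% of UMIs, and were clustered in Seurat 5.3.0 (2000 variable genes without any member, 12 principal components, resolution 0.5). Clusters were named from fixed markers, 953 cells were set aside, and 818 doublets called by Scrublet (scanpy 1.11.5) were kept in the main analysis. UMIs were summed per cell type and library (at least 10 cells). Juvenile 1 and 2 differed by little more than sampling noise (mean squared z 1.14 in EC-like and 1.06 in Micro-like cells) and were counted as 1 sample. Adult 2 and 3 (1.22 and 0.935), Juvenile 3 and 4 (1.23 and 1.11), Aged 1 and 2 (1.69 and 1.17) and EAE 1 and 2 (1.55 and 1.25) were nearly as close but did not stay at or under 1.2 in both types, so they were kept apart, and the number of independent libraries may be smaller than the n given. Sums were tested with the quasi-likelihood test of edgeR 4.0.16 in R 4.3.3 (TMM, expression filter, all groups in a single fit, Benjamini-Hochberg over all genes, threshold 0.05), which was tested on simulated data first. The differences between cell types were interactions with the library as a block. Aged and EAE have 2 libraries each, every library pools mice, and p-values measure the spread between libraries, which may be partly technical. Alternatives were DESeq2 1.42.0, its size factors, no filter, marker scores, no doublets, 2 groups per fit, near-identical pairs summed, all libraries separate, a replicate block and each library left out.

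In each comparison, up to 6 called members with the largest change and at least 20 CPM in the higher group are named with their statistics, and Isg15, Ifit3, Irf7, Bst2, Ifitm3 and Ifi27l2a where a result turns on them. Oas2 in Aged EC-like cells, members that were not called, and members at the edge of a list were named after their values were seen. The members and lists were chosen with earlier results of these data known. Exons of Irf9, Rtp4, Parp14 and Herc6 overlap another gene on the same strand and those of Irf7, Parp9, Dtx3l, Dhx58, Oasl1, Ifi35 and Eif2ak2 on the opposite strand, so their reads may be shared. The values of 1 gene of the pathway list are not reported here.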

Additional observations from a re-analysis of the deposited data

Results flagged for a closer look

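Among 48 sets of 4 Juvenile libraries, 4 held a library far from the others, where chance alone gives about 1 in 20. That rate assumes 4 independent libraries. Juvenile 1 and 2 were counted as 1 sample above, and Juvenile 3 and 4 were nearly as close, so the rate is only a rough guide. In EC-like cells Ifit3 had 1.78 CPM in Juvenile 2 against 2.38 to 2.42 CPM in the other Juvenile libraries. These Ifit3 levels rest on few molecules, so counting error alone may separate them. In Micro-like cells of Juvenile 3, Isg15 had 28.8 CPM against 12.3 to 14.6 CPM, and Ifit3 had 25.1 CPM against 3.24 to 5.74 CPM. In Astro-like cells Isg15 had 23.7 CPM in Juvenile 4 against 5.44 to 8.40 CPM.

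The effects in Micro-like and EC-like cells differed by the interaction test for 29 members in EAE and 22 in Juvenile. The EAE effect in Micro-like minus that in EC-like cells was 3.25 for Isg15, 2.07 for Irf7, 1.67 for Bst2, 1.34 for Ifitm3 and 3.80 for Ifi27l2a on the log2 scale. The same difference for the Juvenile effect was 2.60 for Isg15, 2.25 for Irf7, 1.08 for Bst2 and 5.88 for Ifi27l2a.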

How the results depend on the processing

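No named result that was called in the main analysis reversed its direction in the alternatives run for it. A change of sign in a named result that was not called was not counted as a reversal. Of 79 named results, 61 were run with the DESeq2 test, its size factors, no filter, pairs summed and the replicate block, 58 with 2 groups per fit, 75 with marker scores, and 79 with all libraries separate and without doublets. With near-identical pairs summed the calls numbered 4 in EAE and 0 in Aged EC-like cells, 0 in Aged and 2 in Juvenile Micro-like cells, 9 in EAE CP-like cells, 2 in EAE Mural-like cells, and 0 in Aged and 1 in Juvenile PVM-like cells. With cells named by marker score they numbered 1 (Aged EC-like), 5 (Juvenile Micro-like), 2 (EAE Astro-like), 1 (Juvenile Astro-like), 2 (EAE Mural-like), 1 (Aged PVM-like) and 3 (Juvenile PVM-like). The DESeq2 test gave 5 in Juvenile Micro-like, 1 in Juvenile Astro-like, 1 in Aged PVM-like and 2 in Juvenile PVM-like cells, and its size factors gave 2 in Aged Micro-like cells. Without a filter there were 1 (Aged Astro-like), 4 (Juvenile Astro-like), 3 (Aged Micro-like), 3 (Juvenile Mural-like) and 10 (Juvenile PVM-like). With 2 groups per fit there were 1 (EAE Astro-like), 1 (Juvenile Astro-like), 3 (Juvenile Micro-like) and 3 (Juvenile PVM-like). Juvenile PVM-like cells had 3 calls without doublets and 9 with all libraries separate. Replicate numbers share only a name (same-number correlations of deviations -0.198 to 0.125 in EC-like cells, 1 of 13 pairs over 0.1). The replicate block gave 4 calls in Juvenile Astro-like, 4 in Aged Micro-like and 2 in Juvenile Mural-like cells, and other counts stayed within 1.5 times. The cause of these changes was not tested.

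With each library left out, calls ranged from 12 to 17 (EAE) and 1 to 4 (Aged) in EC-like cells, were 32 throughout in Juvenile EC-like cells, and ranged from 28 to 32 (EAE), 4 to 9 (Juvenile) and 1 to 2 (Aged) in Micro-like, 13 to 21 (EAE), 3 to 6 (Juvenile) and 0 to 4 (Aged) in PVM-like, 10 to 17 (EAE), 13 to 19 (Juvenile) and 0 to 1 (Aged) in CP-like, 0 to 7 (EAE) and 0 to 3 (Juvenile) in Astro-like, and 4 to 9 (EAE) and 1 to 2 (Juvenile) in Mural-like cells. For the differences between Micro-like and EC-like cells they ranged from 22 to 27 (EAE), 19 to 24 (Juvenile) and 0 to 1 (Aged). Juvenile Astro-like cells had 1 call without Adult 2, Aged 2, Juvenile 1 or Juvenile 3, and Juvenile Mural-like cells 2 without Adult 2 or without Juvenile 1, 2 or 4. Of 61 named results, 21 lost their call with pairs summed. Few Astro-like and Mural-like cells and 2 libraries each of Aged and EAE limit what could be detected.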
